A study of Mus musculus with 12 samples.

Results

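The Dlk1-Dio3 domain of distal mouse chromosome 12 holds a large group of miRNA genes. The cluster miRNAs described here were chosen by name: every mature miRNA in the deposited small RNA table whose name belongs to 1 of 49 precursors placed in that domain. This gave 98 mature miRNAs of the 1978 in the table, and the rule uses names, not measured values. All were measured in hippocampus from 4-month-old male mice, of APP/PS1 genotype (transgenic for APPswe and PSEN1dE9) or wild type (WT). The WT mice were littermates of the APP/PS1 mice, and the labels name no treatment. Each genotype had 3 small RNA columns and 3 total RNA libraries, 12 libraries in all. The small RNA columns are called by their headings, APP1, APP2 and APP3 for APP/PS1 and WT1, WT2 and WT4 for WT, because they could be assigned to a genotype and not to a numbered sample. The question asked of them was whether the mature miRNAs of this domain differed between APP/PS1 and WT hippocampus.

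The domain is imprinted, so that genes on it are used from 1 parental chromosome only. The paternal chromosome expresses the protein-coding genes Dlk1, Rtl1 and Dio3, and the maternal chromosome expresses the noncoding RNAs Meg3, Rian and Mirg together with the miRNAs, which are cut out of long transcripts along the domain. A miRNA precursor yields a 5p and a 3p arm, and the mature arm that is kept in an Argonaute protein pairs with messenger RNAs mainly through its seed. In brain these miRNAs are known from neurons: in cultured rat neurons the miR-379 to miR-410 group is transcribed in response to activity through Mef2, and miR-134 from that group limits dendritic spine size. The transgenes of the APP/PS1 line are driven by a prion protein gene promoter, so that the mice model amyloid overproduction from the construct and not from the mouse App gene.

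The sequences of the 12 most abundant cluster miRNAs are shown because they made up 85.9% of the cluster counts. They are given 5′ to 3′ from RefSeq (GRCm38.p6), with the seed, bases 2 to 8, in capitals.
miR-127-3p: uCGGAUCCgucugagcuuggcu
miR-381-3p: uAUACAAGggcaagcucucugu
miR-434-5p: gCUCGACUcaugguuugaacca
miR-434-3p: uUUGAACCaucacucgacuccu
miR-300-3p: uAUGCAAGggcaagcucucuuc
miR-411-5p: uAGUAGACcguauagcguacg
miR-370-3p: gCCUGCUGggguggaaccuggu
miR-541-5p: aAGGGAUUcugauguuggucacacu
miR-379-5p: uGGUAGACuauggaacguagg
miR-136-3p: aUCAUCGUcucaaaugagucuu
miR-341-3p: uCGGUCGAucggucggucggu
miR-543-3p: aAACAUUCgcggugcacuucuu

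These 12 miRNAs carry 12 different seeds. Of them 7 begin with U, against 38 of the 94 cluster miRNAs with a known sequence, and this difference was not tested. U is the base that Argonaute proteins are known to favour at the 5′ end. Of the 98 cluster miRNAs, 94 had a mature sequence in the RefSeq table, 18 to 26 bases long. The remaining 4 are miR-376c-3p, miR-539-3p, miR-487b-3p and miR-485-5p. The 94 sequences held 88 seeds, 82 of them found in 1 member each and 6 shared by 2 members. miR-411-3p and miR-379-3p share the seed AUGUAAC, and miR-376b-5p and miR-376c-5p share the seed UGGAUAU. Of the 88 seeds, 11 also occur in miRNAs of the table from outside the domain, such as ACACACC in miR-329-3p and in miR-362-3p.

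Several members are so alike that the counting could have divided their reads between them, and these are shown to make the differences visible.
miR-411-3p: uAUGUAACacgguccacuaacc
miR-379-3p: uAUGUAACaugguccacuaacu
miR-376b-5p: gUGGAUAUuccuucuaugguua
miR-376c-5p: gUGGAUAUuccuucuauguuua
With positions counted from 1 at the 5′ end and the first member's base written first, miR-411-3p and miR-379-3p differ by C10U and C22U. miR-376b-5p and miR-376c-5p differ by G19U over their 22 aligned bases. The abundant pair miR-381-3p and miR-300-3p differs by A4G, which lies in the seed, and by G21U and U22C at the 3′ end. miR-299a-3p and miR-299b-3p have no difference over the 18 bases compared, and their 5p arms had identical counts in every column. The count ratio of miR-299b-3p to miR-299a-3p was 0.995 to 0.997 over the columns. These 2 precursors are thus not separate measurements, although both enter the counts of members and precursors and the cluster sums. No source used here gives the mismatches that counting allowed, and how reads were divided within the other pairs is uncertain.

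The 6 small RNA columns held 15593728 to 21631169 counts, and their biological coefficient of variation was 26.2%. The tissue check used miRNAs known from neurons (miR-9, miR-124, miR-128 and others), whose summed level was 219325 to 277728 CPM in APP/PS1 columns and 235146 to 263975 CPM in WT columns. CPM here is the count scaled to the column total after its adjustment by the trimmed mean of M-values (TMM). In total RNA, App had 3170, 3465 and 2946 CPM in APP/PS1 libraries, against 1580, 1522 and 1547 CPM in WT libraries, with no overlap between the genotypes. Replicates were taken to be separate mice, and p-values measure the spread between these columns only. Because whole tissue was measured, fewer cells of a type and less RNA per cell cannot be told apart.

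One library of each kind stood apart from the rest. In APP/PS1 total RNA replicate 3, 12 cerebellar genes, a list added after the data were seen, summed to 4273 CPM, against 112 and 143 CPM in the other APP/PS1 libraries and 107 to 181 CPM in WT libraries. Gabra6, a receptor subunit of cerebellar granule cells, had 283 CPM there and at most 0.329 CPM in any other library. Gabra6 and the miRNAs miR-206-3p and miR-182-5p were picked after their values were seen. In the small RNA column APP3, miR-206-3p had 643 CPM, against 6.54 and 3.09 CPM in APP1 and APP2 and 3.72 to 6.0 CPM in WT columns. miR-182-5p had 152 CPM in APP3, against 15.3 and 16.7 CPM in APP1 and APP2 and 10.8 to 22.6 CPM in WT columns. The 7 erythroid miRNAs summed to 2658 CPM in APP3, against 567 and 661 CPM in APP1 and APP2 and 622 to 800 CPM in WT columns. This sum is inflated in every column, because miR-486a and miR-486b had identical counts on both arms and each enters it. Most of the excess in APP3 was their 5p arms, miR-486a-5p and miR-486b-5p. Each had 1065 CPM in APP3, against 161 and 163 CPM in APP1 and APP2 and 181 to 208 CPM in WT columns. By contrast, miR-451a, miR-144-3p and miR-144-5p had 385, 38.3 and 27.7 CPM in APP3, against at most 345, 36.5 and 21.3 CPM in any other column. Small RNA and total RNA samples bear the same genotype and replicate numbers in their titles. The labels do not say which small RNA column and which total RNA library came from the same mouse. The cluster's median fold change, its share of counts, miR-341-3p and miR-369-3p are given with and without APP3 below. Other values that APP3 lowers are given over all columns, some of them with the range over columns left out. The part that other tissue played in any of them was not tested.

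The cluster was dominated by a few members. miR-127-3p, which lies antisense to Rtl1 and pairs with it perfectly, held 45.2% of all cluster counts and ranked 8 among all miRNAs by mean CPM. With miR-381-3p and miR-434-5p it held 62.5%. Of the 98 members, 13 had a mean above 1000 CPM, 27 between 100 and 1000 CPM, 26 between 10 and 100 CPM and 32 at or below 10 CPM. There were 93 members with at least 1 count in every column. miR-654-5p and miR-758-5p had 0 counts in every column, which allows up to 0.130 to 0.207 CPM per column, for counting error only. The cluster supplied 1 of the 20 most abundant miRNAs and 16 of the 100 most abundant.

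miR-127-3p had 45852, 34745 and 34353 CPM in the columns APP1, APP2 and APP3, against 43985, 40179 and 40646 CPM in WT1, WT2 and WT4. The genotypes overlapped, since APP1 was the highest column and APP2 and APP3 were the lowest. The log2 fold change, APP/PS1 over WT, was -0.12 (SE 0.17), with an adjusted p of 0.958 by edgeR's quasi-likelihood test with Benjamini-Hochberg adjustment.

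miR-381-3p had 10806, 7163 and 10494 CPM in the columns APP1, APP2 and APP3, against 9842, 8788 and 8344 CPM in WT1, WT2 and WT4. APP2 alone lay below the WT columns, and the other APP/PS1 columns lay above them. Its near-identical partner miR-300-3p had 3239, 2741 and 2619 CPM in the APP/PS1 columns, against 3011, 3061 and 2727 CPM in the WT columns. APP3 was thus the second highest column for miR-381-3p and the lowest for miR-300-3p. The count ratio of miR-300-3p to miR-381-3p was 0.300, 0.383 and 0.250 in APP1, APP2 and APP3, against 0.306, 0.348 and 0.327 in WT1, WT2 and WT4. The log2 fold change was 0.08 (SE 0.19) for miR-381-3p and -0.03 (SE 0.15) for miR-300-3p.

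Both arms of miR-434, which is also antisense to Rtl1, were abundant. miR-434-5p had 6812, 5934 and 4519 CPM in the APP/PS1 columns, against 6420, 7092 and 5904 CPM in the WT columns. miR-434-3p had 4633, 3958 and 3547 CPM in the APP/PS1 columns, against 4842, 4716 and 3968 CPM in the WT columns. APP3 was the lowest column for both arms, and the genotypes overlapped. Log2 fold changes were -0.17 (SE 0.18) for the 5p arm and -0.16 (SE 0.16) for the 3p arm.

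miR-541-5p, near the 3′ end of the domain's miRNAs, varied most among the 12 after scaling. It had 3299, 2072 and 1782 CPM in the APP/PS1 columns, against 1538, 2036 and 2809 CPM in the WT columns. Each genotype had a column near the top and a column near the bottom of this 2.14-fold range. The log2 fold change was 0.16 (SE 0.29).

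The other 7 of the 12 most abundant members are miR-411-5p, miR-370-3p, miR-379-5p, miR-136-3p, miR-341-3p, miR-543-3p and, already given, miR-300-3p. miR-411-5p averaged 2439 ± 215 CPM in the APP/PS1 columns and 2671 ± 158 CPM in the WT columns (SD, n = 3 each). miR-379-5p, the first miRNA of the miR-379 to miR-410 group, averaged 2054 ± 298 CPM in the APP/PS1 columns and 2273 ± 58.1 CPM in the WT columns. miR-136-3p, antisense to Rtl1, averaged 1398 ± 122 CPM in the APP/PS1 columns and 1541 ± 162 CPM in the WT columns. The APP/PS1 and WT columns overlapped for all 3. miR-370-3p had 2659, 2591 and 1795 CPM in the APP/PS1 columns, against 2310, 2718 and 2294 CPM in the WT columns, so that APP3 alone lay below WT. miR-543-3p averaged 1256 ± 59.2 CPM in the APP/PS1 columns and 1199 ± 204 CPM in the WT columns, also with overlap.

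**Figure D1:**
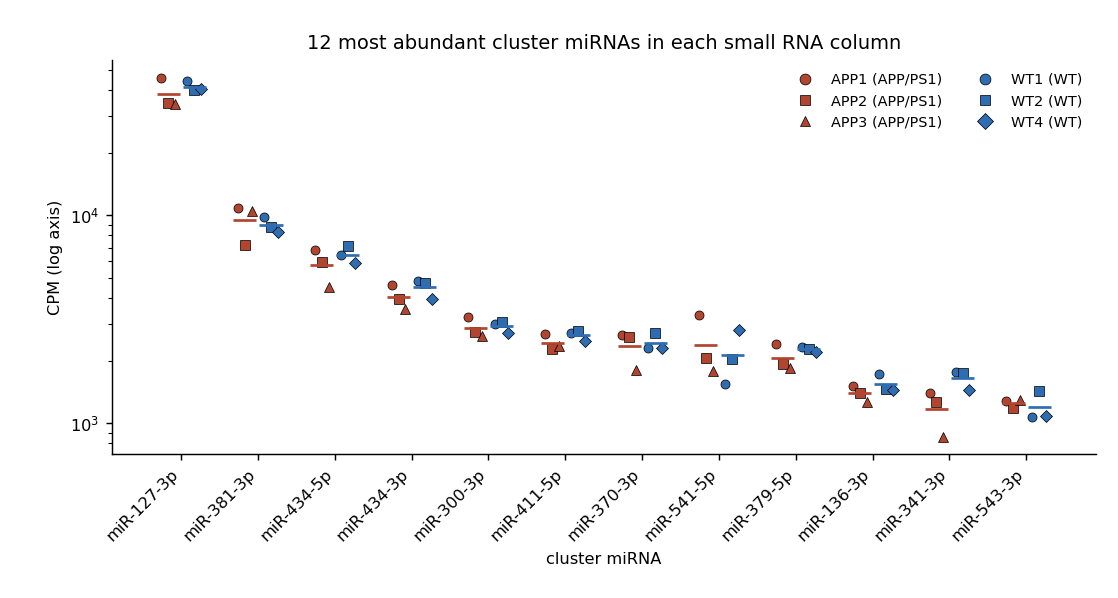
CPM (log axis) of the 12 most abundant cluster miRNAs in each small RNA column, APP/PS1 columns in red at the left and WT columns in blue at the right of each name, with the mean of 3 columns as a line. miR-127-3p stands at 34353 to 45852 CPM, above all others, and only for miR-341-3p do the 3 APP/PS1 points lie below the 3 WT points.

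miR-341-3p, whose precursor lies in the Rian transcript, had the smallest unadjusted p of the cluster. It had 1400, 1262 and 864 CPM in APP1, APP2 and APP3, against 1774, 1746 and 1442 CPM in WT1, WT2 and WT4. Every APP/PS1 column lay below every WT column, although APP1 and WT4 were close. The log2 fold change was -0.49 (SE 0.20), with an unadjusted p of 0.0401 and an adjusted p of 0.958 by edgeR, so it did not pass the test. Leaving out 1 column at a time gave log2 fold changes of -0.62 to -0.29, and the value nearest 0 was the one without APP3. The 5p arm of this precursor was scarce, at 1.23, 1.31 and 0.829 CPM in the APP/PS1 columns, against 0.605, 1.03 and 0.720 CPM in the WT columns. Its log2 fold change was 0.54 (SE 0.34), the highest among the tested members.

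Of the 98 cluster miRNAs, 89 passed the filter on low counts and were tested, and none passed the test at an adjusted p under 0.05. The same test called 0 of all 703 tested miRNAs, a background of 0%. DESeq2 and limma-voom also called none of the 89. At an unadjusted p under 0.05, miR-341-3p was the single cluster miRNA, against a background of 3.56%, or 25 of all 703 miRNAs. The adjusted p of the members ran from 0.958 to 0.990. The median SE of a log2 fold change was 0.21 over the tested members and 0.25 over all tested miRNAs, so small differences were not detectable with 3 columns per genotype.

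The 89 log2 fold changes ran from -0.49 to 0.54, with 69 below 0 and 20 above. Their median was -0.10 (quartiles -0.17 and -0.01), against a median of -0.03 over all 703 tested miRNAs (quartiles -0.17 and 0.17). Without APP3 the median of the members was 0.04, with 37 below 0 and 52 above, so the sign of the median rested on that column. Without APP1 the median was -0.18, with 79 of the 89 below 0. No tested member had all APP/PS1 columns above all WT columns, against 2.7% of all tested miRNAs. All APP/PS1 columns lay below all WT columns for 3 members, or 3 of 89, against a background of 4.41%. These were miR-341-3p and, chosen after their values were seen, miR-485-3p and miR-134-3p. miR-485-3p had 164, 167 and 162 CPM in the APP/PS1 columns, against 167, 194 and 169 CPM in the WT columns. miR-134-3p had 4.15, 4.06 and 3.80 CPM in the APP/PS1 columns, against 4.67, 4.26 and 4.80 CPM in the WT columns. For both, the highest APP/PS1 column and the lowest WT column nearly touched.

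**Figure D2:**
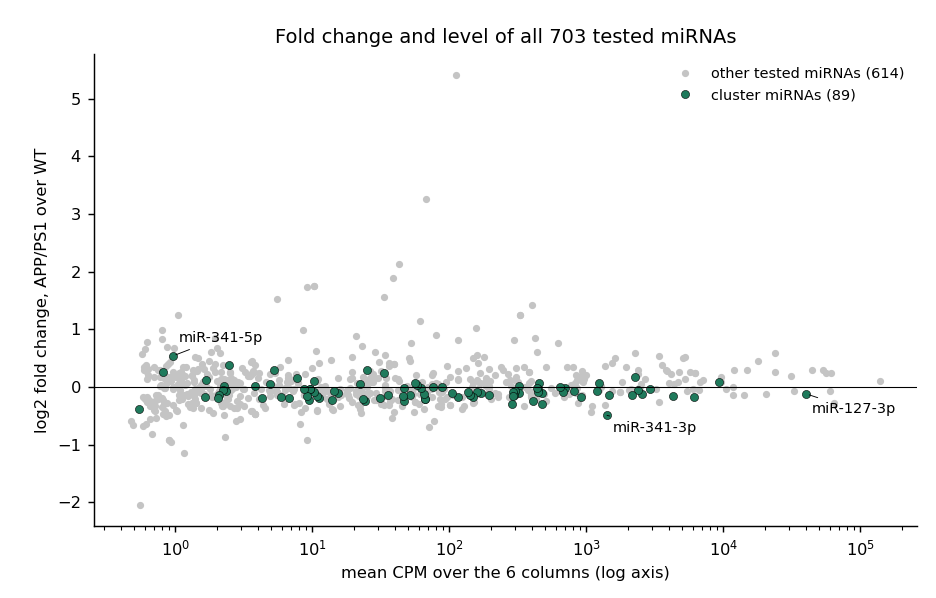
Log2 fold change, APP/PS1 over WT, against mean CPM over the 6 small RNA columns (log axis) for all 703 tested miRNAs, with the 89 tested cluster miRNAs in green. The cluster miRNAs lie between -0.49 and 0.54, with a median of -0.10, at every level from under 1 CPM to that of miR-127-3p.

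Among members with a positive fold change, the 6 with the smallest unadjusted p, miR-341-5p among them, averaged at most 27.4 CPM in the APP/PS1 columns and 22.4 CPM in the WT columns. miR-544-5p had 2.66, 2.80 and 2.97 CPM in the APP/PS1 columns, against 2.68, 2.05 and 1.68 CPM in the WT columns, and WT1 lay among the APP/PS1 columns. miR-494-3p had 37.1, 23.0 and 22.2 CPM in the APP/PS1 columns, against 23.9, 17.9 and 25.3 CPM in the WT columns, and APP1 alone stood above the rest. Log2 fold changes were 0.38 (SE 0.24) for miR-544-5p and 0.30 (SE 0.26) for miR-494-3p. miR-376c-5p, miR-679-5p and miR-539-3p had log2 fold changes of 0.30, 0.16 and 0.26 at mean levels under 10 CPM in both genotypes.

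Among members with a negative fold change, miR-369-3p followed miR-341-3p. It had 489, 468 and 317 CPM in the APP/PS1 columns, against 599, 478 and 478 CPM in the WT columns. APP3 stood well below the others, and APP1 lay above the lower WT columns. The log2 fold change was -0.29 (SE 0.21), and without APP3 it was -0.09. miR-433-5p, miR-496a-3p, miR-673-5p and miR-299b-3p had log2 fold changes of -0.23, -0.24, -0.25 and -0.21, each with SE from 0.17 to 0.20 and with overlap between the genotypes.

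The summed share of the cluster varied more among the APP/PS1 columns than the genotype means differed. Cluster miRNAs held 9.92%, 8.54% and 6.56% of all miRNA counts in APP1, APP2 and APP3, against 10.2%, 9.37% and 8.80% in WT1, WT2 and WT4. The 2 lowest shares were in APP2 and APP3, and APP1 lay within the WT range. The means were 8.34% ± 1.69 in APP/PS1 columns and 9.45% ± 0.69 in WT columns (SD, n = 3 each), a difference of -1.11 percentage points. Without APP3 the difference was -0.22 percentage points. The widest 95% Wilson interval of these shares, in APP1, ran from 9.91% to 9.94%, so counting error was far below the spread between columns. Scaled by TMM, the summed level was 100209, 79400 and 77158 CPM in the APP/PS1 columns, against 95133, 91349 and 87405 CPM in the WT columns. The TMM factor of APP3 was 0.850, against 0.990 and 1.08 for the other APP/PS1 columns and 1.01 to 1.07 for the WT columns.

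**Figure D3:**
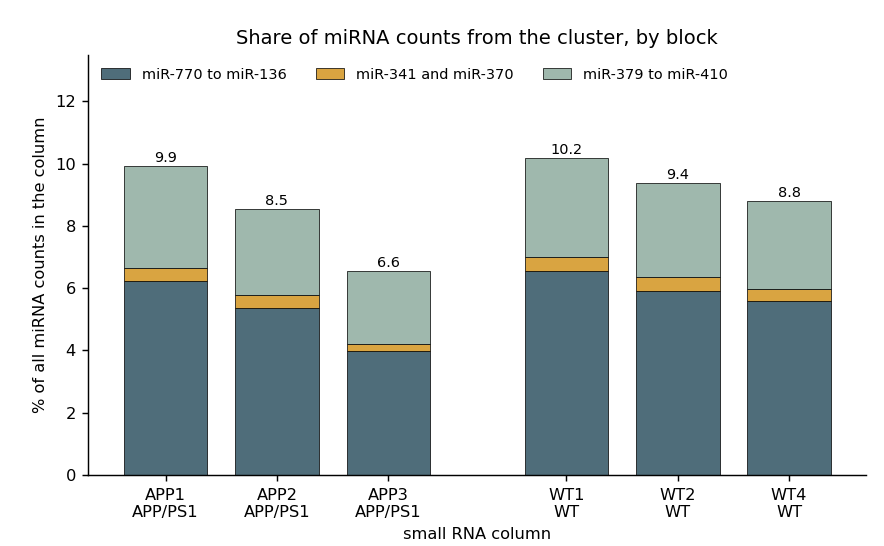
Percent of all miRNA counts held by cluster miRNAs in each small RNA column, APP/PS1 columns at the left and WT columns at the right, stacked by the 3 blocks of the cluster. APP3 is the lowest bar at 6.56%, and WT1 the highest at 10.2%.

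Members tended to be lowest in the same column. Of the 89 tested members, 61 (68.5%) had their lowest CPM in APP3, against 29.9% of all tested miRNAs. The highest CPM was in APP1 for 32 members, in WT1 for 25 and in WT2 for 21. The median deviation of the members from their own mean over the 6 columns was 0.15, -0.04 and -0.23 on the log2 scale in APP1, APP2 and APP3, against 0.10, 0.08 and -0.02 in WT1, WT2 and WT4. Over all tested miRNAs the same median ran from -0.03 in APP2 to 0.02 in WT1. APP3 is the column with 643 CPM of miR-206-3p, and whether the 2 are connected was not tested. When counts were scaled to the cluster sum instead of the whole column, the median log2 fold change of the members was -0.002, with 44 above 0 and 45 below. That scaling uses the members' own sum, so a median near 0 was largely fixed in advance and no conclusion is drawn from it.

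**Figure D4:**
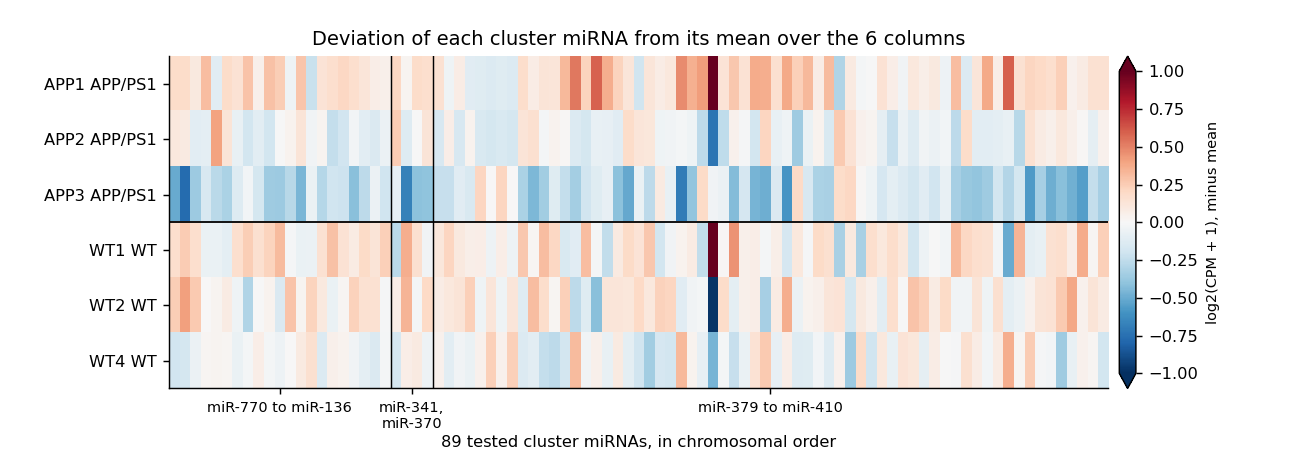
Deviation of each of the 89 tested cluster miRNAs from its own mean over the 6 small RNA columns, in log2(CPM + 1), in chromosomal order from left to right, with the APP/PS1 columns above the line and the WT columns below it. APP3 is mostly below the mean (median -0.23) along the whole cluster, and the member that is high in APP1 and WT1 and low elsewhere is miR-376c-3p.

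Most abundant members were steady across columns. Of the 40 members above 100 CPM, 37 had a highest column less than 2 times the lowest, and the median ratio was 1.37. The exceptions were miR-770-3p, miR-541-5p and miR-341-3p, with ratios of 2.28, 2.14 and 2.05. miR-770-3p, chosen after its values were seen, had 317, 297 and 163 CPM in the APP/PS1 columns, against 333, 372 and 247 CPM in the WT columns. APP3 was the lowest column and WT4 the next, so that the genotypes overlapped.

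miR-376c-3p, also chosen after its values were seen, varied more than any other tested member above 10 CPM. It had 65.2, 16.5 and 27.3 CPM in APP1, APP2 and APP3, against 58.2, 13.7 and 19.98 CPM in WT1, WT2 and WT4. It was high in 1 column of each genotype, APP1 and WT1, and the ratio of highest to lowest was 4.76. The 5p arm of the same precursor had 7.19, 4.12 and 6.01 CPM in the APP/PS1 columns, against 4.19, 5.07 and 4.80 CPM in the WT columns, and was high in APP1 but not in WT1. The neighbouring miR-376b-3p had 346, 296 and 213 CPM in the APP/PS1 columns, against 393, 269 and 245 CPM in the WT columns, with the same 2 columns highest but a ratio of 1.85. The miR-376 family is known for A-to-I editing of its precursors in brain, which was not measured here.

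The cluster falls into 3 blocks when neighbouring precursors more than 10000 bases apart are separated. The first, from miR-770 to miR-136 at chr12:109563710-109595387, starts within the RefSeq span of Meg3 and ends within that of Rtl1. Its 11 precursors held 63.1% of the cluster counts. The second, miR-341 and miR-370 at chr12:109611521-109618326, lies within the span of Rian and held 4.38%. The third, from miR-379 to miR-410 at chr12:109709065-109743784, starts upstream of the span of Mirg and ends within it. Its 36 precursors held 32.5%. Except for miR-299b, on the minus strand, all precursors lie on the plus strand in GRCm38.p6.

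The median fold changes of the 3 blocks were close to each other. The median log2 fold change was -0.13 over 21 tested members of the first block, -0.10 over 4 of the second and -0.09 over 64 of the third. In the first block 17 of 21 members were lowest in APP3, in the second 3 of 4 and in the third 41 of 64. As a share of cluster counts, the first block took 62.9%, 62.7% and 60.9% in APP1, APP2 and APP3, against 64.5%, 63.0% and 63.7% in WT1, WT2 and WT4. The third block took 33.0%, 32.4% and 35.6% in the APP/PS1 columns, against 31.2%, 32.1% and 32.0% in the WT columns. The APP/PS1 columns lay below the WT columns in the first share and above them in the third. APP1 and WT2 nearly touched in the first share, as did APP2 and WT2 in the third. The 3 shares add up to the whole, so these are not separate results. They were added after the data were seen, and no background for such a lack of overlap was computed. The third block includes miR-381-3p, at 10494 CPM in APP3, its second highest column. The share of the block without miR-381-3p was not computed.

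The share of the 5p arm within a precursor needs no scaling between columns and was compared for the 41 precursors with both arms tested. The 5p arm held at least 80% of the counts in 11 precursors, at most 20% in 16 and a share between these in 14. The choice of arm was strongest for miR-381, with 0.023% of counts on the 5p arm over all columns, and for miR-541, with 99.6% on the 5p arm. miR-337 and miR-666 also gave nearly all counts on the 5p arm, at 98.9% and 97.99%. miR-341 and miR-668 gave nearly all on the 3p arm, with 0.072% and 0.177% on the 5p arm. Of the 24 arms holding 80% or more with a known sequence and partner, 13 began with U, against 9 of their 24 partner arms.

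Arm shares differed little between genotypes. The median difference over the 41 precursors was -0.004 percentage points, the median absolute difference was 0.26 percentage points, and 37 precursors were within 2 percentage points. For miR-127 the 5p share was 2.17%, 2.16% and 2.24% in the APP/PS1 columns, against 2.46%, 2.10% and 2.25% in the WT columns. For miR-434 it was 59.5%, 60.0% and 56.0% in the APP/PS1 columns, against 57.0%, 60.1% and 59.8% in the WT columns. In both the genotypes overlapped, and the low share of miR-434-5p in APP3 had a counterpart in WT1. The shares of miR-300, miR-411 and miR-370 averaged 0.363%, 89.7% and 1.43% in APP/PS1 columns and 0.340%, 89.6% and 1.52% in WT columns.

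The largest differences in arm share were in precursors with fewer counts. miR-544 had a 5p share of 54.7%, 54.4% and 56.6% in the APP/PS1 columns, against 62.6%, 45.2% and 38.4% in the WT columns, where 95% Wilson half-widths reached 11.0 percentage points. The WT columns lay on both sides of the APP/PS1 columns. miR-673 had 48.5%, 52.1% and 48.6% in the APP/PS1 columns, against 56.4%, 56.7% and 50.7% in the WT columns, with APP2 above WT4. miR-539 averaged 91.3% ± 4.61 in APP/PS1 columns and 93.3% ± 2.63 in WT columns (SD, n = 3 each). Arm shares of precursors outside the cluster were not compared, so a count of precursors without overlap has no background here. The genotypes did not overlap for 2 of the 41 precursors, miR-341 and miR-770. Each had an exact two-sided permutation p of 0.1, the smallest that 3 against 3 columns allow. Adjusted over the 41 precursors this p was 1.0. miR-770, a cluster precursor picked after its values were seen, had a 5p share of 18.8%, 19.0% and 21.6% in the APP/PS1 columns, against 17.8%, 17.04% and 18.5% in the WT columns.

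**Figure D5:**
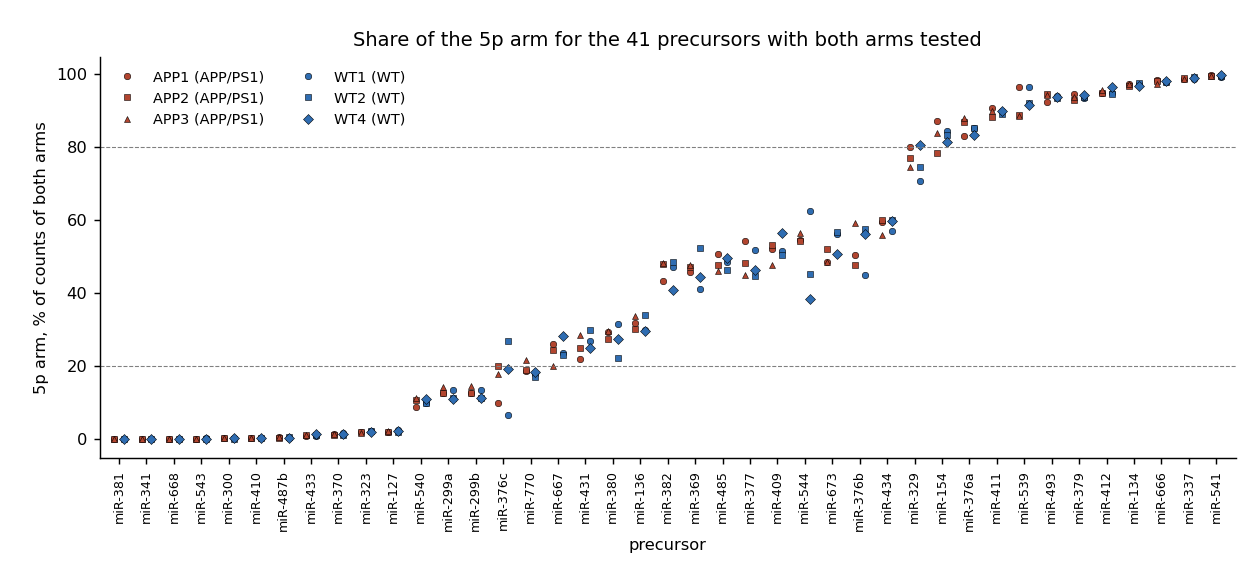
Percent of counts on the 5p arm for the 41 precursors with both arms tested, sorted by the mean over columns, APP/PS1 columns in red at the left and WT columns in blue at the right of each name, with dashed lines at 20% and 80%. The order runs from miR-381 at 0.023% to miR-541 at 99.6%, and the genotypes overlap for all but miR-341 and miR-770.

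The long transcripts of the domain were read in the total RNA libraries. Meg3, the maternally expressed RNA that regulates the domain, had 2936, 2702 and 1958 CPM in APP/PS1 replicates 1, 2 and 3, against 2609, 3084 and 2789 CPM in WT replicates 1, 2 and 4. APP/PS1 replicate 3 was the lowest, and the other libraries overlapped. Rian, which hosts small nucleolar RNAs as well as miRNAs, had 405, 267 and 300 CPM in APP/PS1 libraries, against 332, 298 and 301 CPM in WT libraries. Mirg, which spans the end of the miR-379 to miR-410 group, had 18.5, 12.1 and 14.5 CPM in APP/PS1 libraries, against 16.9, 14.4 and 12.9 CPM in WT libraries. The APP/PS1 libraries lay on both sides of the WT libraries for Rian and for Mirg. The log2 fold changes were -0.16 (SE 0.16) for Meg3, 0.06 (SE 0.16) for Rian and 0.03 (SE 0.18) for Mirg.

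Of the paternally expressed genes, Rtl1, a retrotransposon-derived gene that is silenced by the miRNAs antisense to it, had 28.05, 24.1 and 22.6 CPM in APP/PS1 libraries, against 27.5, 33.6 and 24.9 CPM in WT libraries. Dlk1, which encodes a membrane protein related to Notch ligands, had 17.99, 25.8 and 8.596 CPM in APP/PS1 libraries, against 6.12, 31.7 and 13.4 CPM in WT libraries. Dio3, which encodes the deiodinase that inactivates thyroid hormone, had 5.87, 3.94 and 2.03 CPM in APP/PS1 libraries, against 4.70, 4.55 and 4.396 CPM in WT libraries. The genotypes overlapped for all 3, and Dlk1 varied more within WT than between genotypes. Log2 fold changes were -0.20 (SE 0.14) for Rtl1, 0.03 (SE 0.63) for Dlk1 and -0.20 (SE 0.36) for Dio3. The spans of Rtl1, Meg3 and Rian overlap and the strand setting of the counting is not known from the labels, so reads in the overlap cannot be assigned with certainty.

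The list of 13 domain genes also holds neighbours outside the imprinted core. None of the 13 passed the test, nor had any an unadjusted p under 0.05 by edgeR. The backgrounds over all 18060 tested genes were 0.00554% at an adjusted p under 0.05 (1 gene) and 3.42% at an unadjusted p under 0.05. Of the 13, 9 had a negative and 4 a positive log2 fold change, with a median of -0.11, against 0.01 over all tested genes. Without APP/PS1 replicate 3 the median was -0.01. The other members, Begain, Dio3os, Wdr25, Wars, Slc25a29, Yy1 and Ppp2r5c, had log2 fold changes of -0.37, -0.24, -0.05, -0.11, 0.32, -0.02 and -0.18, and their adjusted p ran from 0.887 to 0.959 by edgeR.

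Genes that act on the domain or on miRNAs in general did not pass the test either. Of 13 regulators (Mef2 factors, Creb1 and imprint-keeping factors such as Zfp57, Trim28 and Dnmt1), 0 were called, 9 had a positive log2 fold change and 4 a negative one. Mef2c, a neuronal transcription factor, had 101, 121 and 70.6 CPM in APP/PS1 libraries, against 203, 206 and 260 CPM in WT libraries. The genotypes did not overlap, but the share of all tested genes without overlap was not computed. The log2 fold change was -1.19 (SE 0.21), with an unadjusted p of 0.000898 and an adjusted p of 0.887 by edgeR. Mef2c was the 1 regulator with an unadjusted p under 0.05, against a background of 3.42% over all tested genes. Mef2a and Mef2d, of the same family and picked after their values were seen, had log2 fold changes of -0.05 and -0.09. Creb1, Dnmt1 and Ctcf had log2 fold changes of 0.21, 0.19 and 0.17, each highest in APP/PS1 replicate 3.

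Of the 17 tested genes for miRNA processing and editing, 0 were called, 11 had a positive and 6 a negative log2 fold change, and the median was 0.04. Ago3, an Argonaute protein, had 92.3, 90.7 and 93.5 CPM in APP/PS1 libraries, against 85.1, 83.2 and 83.2 CPM in WT libraries. The genotypes did not overlap, with a log2 fold change of 0.14 (SE 0.07) and an adjusted p of 0.887 by edgeR. No share of all tested genes without overlap was computed to set beside this. Tarbp2, a partner of Dicer, Drosha, the nuclear enzyme that frees precursors, and Ago1 had log2 fold changes of 0.31, -0.10 and -0.07.

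Of the 18 genes reported as targets of cluster miRNAs, in several species, 0 were called, 7 had a positive and 11 a negative log2 fold change, and the median was -0.04. APP/PS1 replicate 3 was the lowest library for 11 of the 18, and the share of all tested genes lowest there was not computed. Limk1, an actin regulator and the target of miR-134 in rat hippocampal neurons, had 44.0, 42.1 and 34.7 CPM in APP/PS1 libraries, against 43.2, 47.0 and 46.2 CPM in WT libraries. APP/PS1 replicate 3 was the lowest, and replicate 1 lay within the WT range. Sirt1, a deacetylase, and Syn1, a synaptic vesicle protein, had log2 fold changes of 0.35 and -0.27. Sirt1 was highest and Syn1 lowest in APP/PS1 replicate 3, the library with the cerebellar genes, whose part in these values was not tested. Of 10 hippocampal neuron markers 9 had a negative log2 fold change, with a median of -0.13, and none was called. In APP/PS1 replicate 3, 8 of the 10 had their lowest level, again with no share of all tested genes computed. Rbfox3 and Snap25, picked after their values were seen, were instead highest there, at 323 and 2155 CPM. Snap25 was only just above WT replicate 4, at 2147 CPM. The part of that library in the values of these markers was not tested. C1ql2, Wfs1, Prox1 and Neurod2 had log2 fold changes of -0.41, -0.27, -0.11 and -0.09.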

How the data were processed

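Small RNA and stranded total RNA libraries were made from hippocampus per the labels' protocols, 3 of each kind per genotype. The miRNA table holds raw counts per mature miRNA as deposited, and the gene table holds estimated counts as deposited, 1 whole number per gene symbol, which were used unrounded. Per the submitters' processing notes HISAT2, StringTie and DESeq were used with build mm10. No source used here gives their versions, the tool behind the miRNA counts or the mismatch and strand rules. Among low values of the gene file, 4 was found 1817 times and 3 was found 897 times, so 1 sequenced fragment may stand for several estimated counts and the depth in fragments is uncertain. Small RNA headings equal the titles of total RNA libraries, so those columns were assigned to a genotype only.

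In both tables the genotypes were compared with edgeR 4.0.16 in R 4.3.3 (glmQLFit and glmQLFTest, the quasi-likelihood test), using TMM factors, the default low-count filter, no covariate and Benjamini-Hochberg adjustment over all tested features at 0.05. The procedure was tested on simulated data. The 5p share of each precursor was compared by an exact two-sided permutation test over columns. Sequences and positions came from RefSeq tables of GRCm38.p6, the same build as mm10. The SE is the absolute log2 fold change divided by the square root of the F value. Intervals and floors (3 counts, 95% confidence) cover counting error only.

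The rule for names took the 12 cluster miRNAs with the highest mean CPM, up to 6 per direction with the smallest unadjusted p, the precursors with the most counts, the most one-sided arms or the largest differences in arm share, all 13 domain genes and up to 4 members of each other gene list. Features named beyond this rule were picked with their values in view. The members, lists and rules were chosen with earlier results of these data known. The alternatives were other size factors, no scaling beyond totals, scaling to the cluster sum, other filters, DESeq2 1.42.0, limma-voom 3.58.1, estimated counts divided by 4, a block for the replicate number, and the omission of each column in turn. The share of each block and the cerebellar and App lists were added after seeing the data.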

Additional observations from a re-analysis of the deposited data

How the results depend on the processing

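Low counts limited scarce members and their arm shares, and 3 columns per genotype limited every test. No setting called a cluster miRNA or a domain gene. Over all miRNAs, 0 were called, against 5 with no filter on low counts, 5 with a 2-fold change and an unadjusted p under 0.05, and 0 to 3 with 1 column left out (3 without APP1). Over all genes, 1 was called, against 26 by DESeq2, 2 with the replicate block and 0 to 6 with 1 library left out (6 without APP/PS1 replicate 1, 5 without replicate 3, 4 without WT replicate 4, 0 without WT replicate 1 or 2). The cause was not tested. Column totals moved the median log2 fold change of all tested miRNAs to -0.11, and scaling to the cluster sum moved it to 0.08, against -0.03 with TMM. The cluster's median was -0.18 with totals.

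Replicate numbers 1 and 2 occur in both genotypes and no label says that they pair mice. The numbers 3 and 4 occur in 1 genotype each. With the replicate block, APP/PS1 replicate 3 and WT replicate 4 (APP3 and WT4) therefore did not enter the genotype difference, which rested on numbers 1 and 2. Same-numbered small RNA columns correlated in their deviations at 0.22 and 0.25, total RNA libraries at 0.09 and -0.04. Among differently numbered small RNA columns, APP3 with WT4 correlated at 0.17 and the other pairs at -0.21 to -0.008. Differently numbered total RNA libraries correlated at -0.08 to 0.07. Whether same-numbered small RNA columns shared a litter or a batch was not tested. With the replicate block the cluster's median was -0.06, and the sign turned for miR-381-3p (-0.080), miR-370-3p (0.067), miR-543-3p (-0.0089), Mirg (-0.062), Dio3 (0.057) and Wdr25 (0.12). The block moved miR-541-5p from 0.16 to 0.56 (adjusted p 0.386 by edgeR) and Dlk1 from 0.03 to 0.61. Cluster miRNAs at an unadjusted edgeR p under 0.05 numbered 5 (4 higher and 1 lower in APP/PS1), against 1 without the block. Over all 703 tested miRNAs, 35 were higher and 36 lower at that threshold with the block, against 13 and 12 without it. The rise was thus not particular to the cluster. With totals the sign turned for miR-381-3p (-0.032) and miR-543-3p (-0.025). None of these passed the test with or without the block.

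With 1 column or library left out, log2 fold changes took both signs, from lowest to highest, for miR-381-3p (-0.014 to 0.24), miR-434-5p (-0.29 to 0.0053), miR-300-3p (-0.11 to 0.055), miR-370-3p (-0.14 to 0.13), miR-541-5p (-0.12 to 0.43), miR-679-5p (-0.0070 to 0.29), miR-539-3p (-0.027 to 0.59), Dlk1 (-0.37 to 0.84), Rian (-0.13 to 0.18), Mirg (-0.14 to 0.17), Dio3 (-0.61 to 0.10), Wdr25 (-0.14 to 0.046), Wars (-0.26 to 0.044) and Yy1 (-0.028 to 0.00065). The other 16 named cluster miRNAs and 6 domain genes kept their sign. The genotype difference in cluster share ran from -1.90 to -0.22 percentage points, and the median difference in 5p share from -0.02 to 0.07 percentage points.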

Other observations

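The table also holds 17 mature miRNAs that belong to the same domain but lie outside the naming rule. They were scarce: 8 had no count in any column, and together they came to 0.0158% of the cluster counts. miR-3072-3p, the most abundant of them, had 12.95, 5.20 and 5.59 CPM in APP1, APP2 and APP3, against 9.72, 5.18 and 6.66 CPM in WT1, WT2 and WT4. Its 2 highest columns, APP1 and WT1, were also those of miR-376c-3p.

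miRNAs known from other cell types gave the following summed levels. Choroid plexus miRNAs (mainly miR-204-5p) summed to 2847 to 5233 CPM in APP/PS1 columns and 2460 to 3740 CPM in WT columns. Oligodendrocyte miRNAs (miR-219a and miR-338) summed to 2155 to 2223 CPM in APP/PS1 and 2047 to 2923 CPM in WT columns. Microglia and leukocyte miRNAs summed to 271 to 306 CPM in APP/PS1 and 296 to 326 CPM in WT columns. Endothelial miR-126a summed to 10487 to 13276 CPM in APP/PS1 and 10169 to 13723 CPM in WT columns. miR-143 and miR-449a, enriched in other non-neuronal cells, summed to 6078 to 12053 CPM in APP/PS1 and 7834 to 10526 CPM in WT columns. Muscle miRNAs, with miR-206, summed to 537, 552 and 1264 CPM in APP1, APP2 and APP3 and to 474 to 625 CPM in WT columns. The most abundant of them, miR-1a-3p, had 517 to 586 CPM in APP/PS1 and 453 to 603 CPM in WT columns. Epithelial and olfactory miRNAs, with miR-182, summed to 109, 178 and 404 CPM in APP1, APP2 and APP3 and to 146 to 231 CPM in WT columns. In APP3, miR-182-5p, miR-183-5p and miR-96-5p had 152, 122 and 36.0 CPM, each its highest column. miR-200a-3p, miR-200b-3p and miR-429-3p had 49.8, 33.0 and 5.59 CPM there, within the range of the other columns. Of the 8 tested members of this list, 4 had a positive and 4 a negative log2 fold change. No member of these lists passed the test, and their part in the cluster's values was not tested.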
